A study of Mus musculus with 2 samples.

Results

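The Krüppel-like factor (Klf) genes encode transcription factors that bind GC-rich and CACCC-type DNA through C2H2 zinc fingers at their carboxyl end. Family members differ outside the fingers, and are grouped by the cofactors they recruit. Klf2, Klf4, Klf6 and Klf7 belong to the branch that works mostly with acetyltransferase coactivators, Klf3 and Klf12 to the branch that binds the CtBP corepressors, and Klf9, Klf10, Klf11 and Klf13 to the branch that binds the Sin3 corepressor. In leukocytes the family is known for its roles in lymphocyte quiescence and traffic, in monocyte differentiation and in macrophage activation.

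The 10 genes described here (Klf2, Klf3, Klf4, Klf6, Klf7, Klf9, Klf10, Klf11, Klf12 and Klf13) were taken by symbol from the 30538 genes of the count table, which lists 17 Klf genes in all. The samples were spleen cells from mice infected intravenously with 100000 *Listeria monocytogenes*, collected on day 3, in 1 library from Ch25h-/- mice and 1 library from C57BL/6 mice. Ch25h encodes cholesterol 25-hydroxylase, which makes 25-hydroxycholesterol. Both sorts took about 100000 CD11b+, Ly6G-, Ly6C-low cells, which the labels call resident splenic macrophages, and both groups were infected, so no uninfected level is given. Age, sex and the number of mice behind each library are not given in the labels.

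The Ch25h-/- library held 15986392 gene counts and the C57BL/6 library 16957371. Ch25h itself had 0 counts in the Ch25h-/- library and 3 counts in the C57BL/6 library, both at or under the floor of 3 counts used for an undetected gene, so it does not check the genotype labels at this depth. Levels are given as CPM (counts scaled to library size with TMM factors), and the log2 ratio is that of Ch25h-/- over C57BL/6. Each genotype has a single library, so no test was possible. The 95% intervals hold only the error of counting reads, and differences from mouse to mouse or sort to sort are not in them. A gene was counted as measured from a mean of 1 CPM, and called lower or higher where its ratio reached 2-fold and its interval lay on 1 side of a log2 ratio of 0.

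All 10 members were measured, and 7 of them had a log2 ratio under 0, against 48.2% of all measured genes. Klf4 and Klf9 were called lower in the Ch25h-/- library, and no member was called higher. Among all 11972 measured genes, 5.77% were called lower and 2.07% higher. At a limit of 1.5-fold, 5 of the 10 members were lower, namely Klf2, Klf4, Klf6, Klf9 and Klf11, against 11.2% of measured genes. No member was higher at that limit, against 7.35% of measured genes. The median log2 ratio of the members was -0.56, and that of all measured genes was 0.015. The whole interval lay below 0 for 7 members and above 0 for 2, against 27.5% of measured genes below 0 and 31.0% above. These 2 shares cover genes of every level from 1 CPM. Intervals are narrower at higher counts, so the shares are not matched to the levels of the members.

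**Figure D1:**
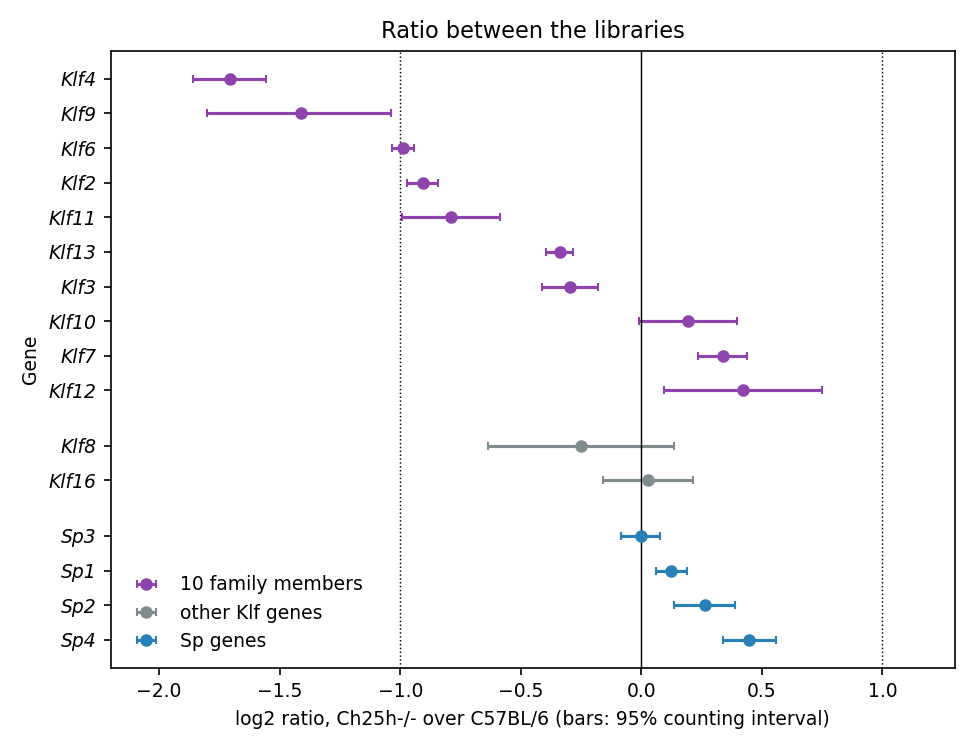
Log2 ratio of Ch25h-/- over C57BL/6 (x axis) for the 10 family members, the other 2 measured Klf genes and the 4 measured Sp genes, with 95% counting intervals as bars and dotted lines at a 2-fold difference. Klf4 and Klf9 lie beyond the line on the left, Klf6 lies on it, and Klf7, Klf10 and Klf12 lie to the right of 0.

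Among the activator branch, Klf4 had the lowest ratio. Klf4, which takes part in monocyte differentiation and in alternative activation of macrophages, had 460 counts (29.0 CPM) in the Ch25h-/- library and 1620 counts (94.7 CPM) in the C57BL/6 library. Its log2 ratio was -1.71 (interval -1.86 to -1.55), and 1.75% of measured genes had a smaller ratio. The Klf4 level in the Ch25h-/- library was thus well below that in the C57BL/6 library. The gene (ENSMUSG00000003032) lies on the minus strand of GRCm38 chromosome 4, from 55527143 to 55532466.

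Klf6 and Klf2 fell just short of the 2-fold limit and were not called, and Klf9 was the called member nearest to it. Klf6, a broadly expressed member that promotes inflammatory gene expression in macrophages, had 5585 counts (352.5 CPM) in the Ch25h-/- library and 11964 counts (699 CPM) in the C57BL/6 library. Its log2 ratio was -0.99, and its interval of -1.03 to -0.94 spans the limit. With total counts in place of TMM factors the ratio became -1.01 and Klf6 was called lower.

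Klf2, which maintains quiescence of lymphocytes and controls their exit from tissue, had 2886 counts (182 CPM) in the Ch25h-/- library and 5846 counts (342 CPM) in the C57BL/6 library. Its log2 ratio was -0.91 (interval -0.97 to -0.84). The proportion of Klf2 to Klf6 differed little between the libraries. There were 0.517 Klf2 counts per Klf6 count in the Ch25h-/- library and 0.489 in the C57BL/6 library, a log2 difference of 0.08 whose interval, 0.0017 to 0.16, just leaves out 0. Klf6 (ENSMUSG00000000078) lies on the plus strand of chromosome 13, from 5861482 to 5870394, and Klf2 (ENSMUSG00000055148) on the plus strand of chromosome 8, from 72319033 to 72321656.

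Klf7, the remaining member of the activator branch and a factor of neuronal development, went the other way. It had 1715 counts (108 CPM) in the Ch25h-/- library and 1466 counts (85.7 CPM) in the C57BL/6 library, a log2 ratio of 0.34 (interval 0.24 to 0.44) that did not reach either limit. A long noncoding gene on the opposite strand, Gm26649, shares 3196 exonic bases with Klf7 and had 2 counts in the Ch25h-/- library and 1 in the C57BL/6 library. The sources used here do not say whether counting used strand, so reads of such partners cannot be told apart.

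**Figure D2:**
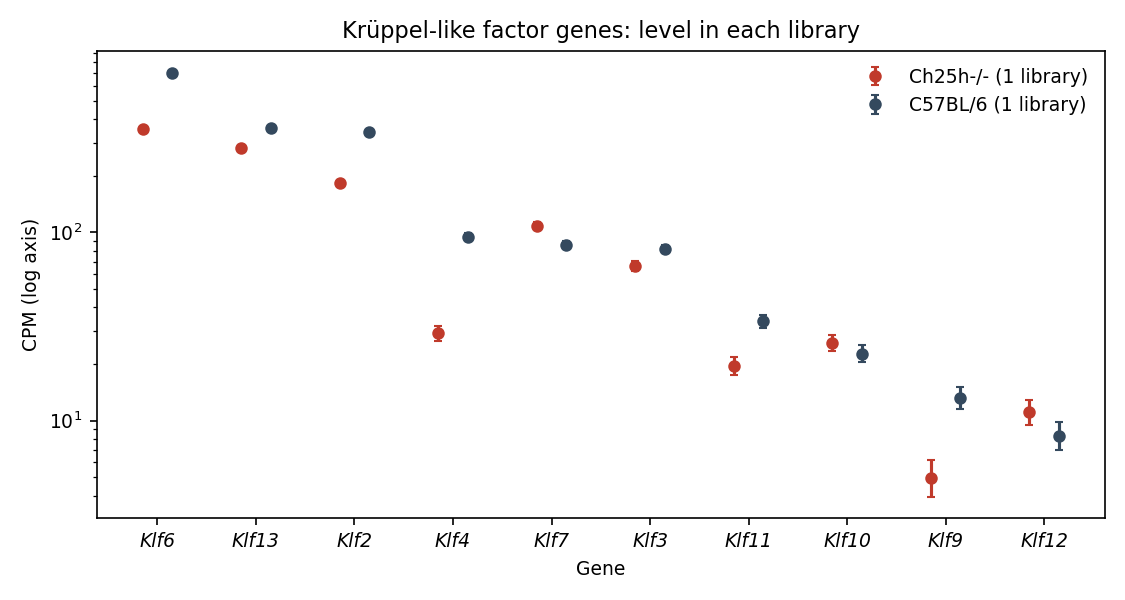
Level of each member in CPM (log axis, not corrected for gene length) in the Ch25h-/- library (left point of each pair) and the C57BL/6 library (right point), with exact 95% Poisson intervals as bars and genes ordered by their C57BL/6 level. The widest gap within a pair is that of Klf4, and the points of Klf7, Klf10 and Klf12 are the ones that lie higher in the Ch25h-/- library.

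In the Sin3-binding branch, Klf9 was called lower. Klf9, a gene induced by glucocorticoid and thyroid hormone, had 79 counts (4.99 CPM) in the Ch25h-/- library and 227 counts (13.3 CPM) in the C57BL/6 library. Its log2 ratio was -1.41, and with few counts its interval was the widest of the family, -1.80 to -1.04. The gene (ENSMUSG00000033863) lies on the plus strand of chromosome 19, from 23141226 to 23168134.

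Klf10 and Klf11, a pair of related genes that respond early to TGF-beta, separated. Klf11 had 309 counts (19.5 CPM) in the Ch25h-/- library and 577 counts (33.7 CPM) in the C57BL/6 library, a log2 ratio of -0.79 (interval -0.99 to -0.59). Klf10 had 412 counts (26.0 CPM) in the Ch25h-/- library and 389 counts (22.7 CPM) in the C57BL/6 library. Its log2 ratio was 0.19, and its interval of -0.01 to 0.40 was the only one of the family that held 0. Klf10 therefore had more counts than Klf11 in the Ch25h-/- library and fewer in the C57BL/6 library. The count ratio of Klf10 to Klf11 was 1.33 in the Ch25h-/- library and 0.674 in the C57BL/6 library, a log2 difference of 0.98 (interval 0.70 to 1.27).

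Klf13, a member known for driving late expression of the chemokine gene Ccl5 in T cells, had 4476 counts (283 CPM) in the Ch25h-/- library and 6111 counts (357 CPM) in the C57BL/6 library. Its log2 ratio of -0.34 (interval -0.39 to -0.28) was well inside the 2-fold limit.

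The CtBP-binding branch showed no called gene. Klf3, a repressor with roles in erythroid and B cell development, had 1055 counts (66.6 CPM) in the Ch25h-/- library and 1400 counts (81.8 CPM) in the C57BL/6 library, a log2 ratio of -0.30 (interval -0.41 to -0.18). Klf12, first described as a repressor of the AP-2 alpha gene, had 176 counts (11.1 CPM) in the Ch25h-/- library and 142 counts (8.30 CPM) in the C57BL/6 library. Its log2 ratio of 0.42 (interval 0.09 to 0.75) was the largest of the family. Both genes have annotated neighbours within their bounds on the opposite strand, and Gm20033 shares 404 exonic bases with Klf3.

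**Figure D3:**
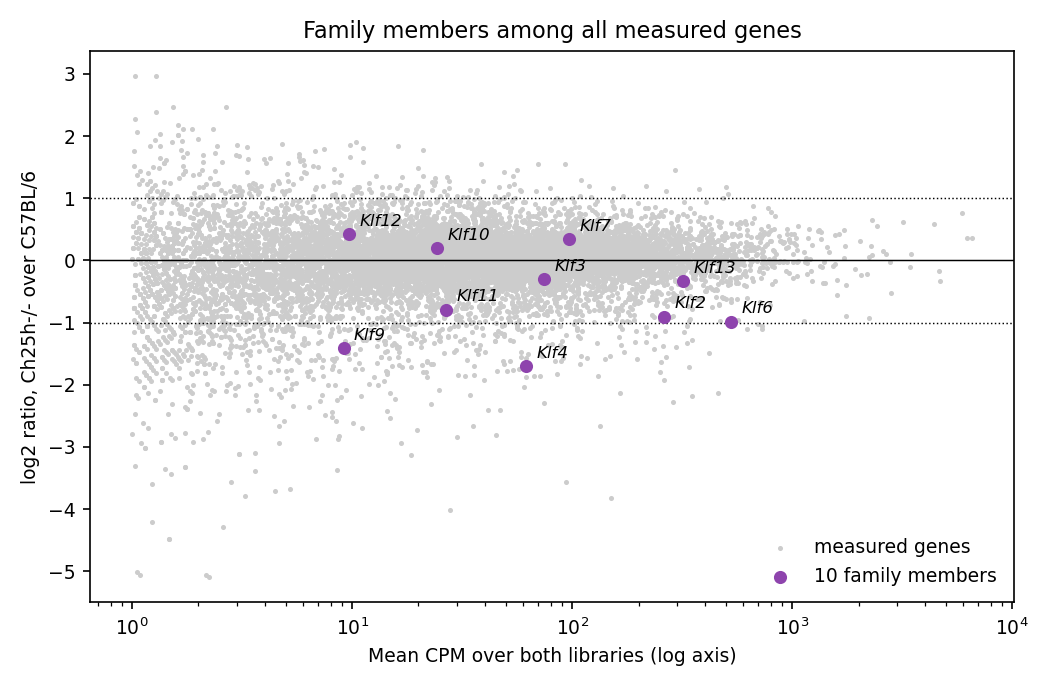
Log2 ratio of Ch25h-/- over C57BL/6 against the mean CPM of both libraries (log axis) for all 11972 measured genes (grey) and the 10 members (purple), with dotted lines at a 2-fold difference. Klf4, at a mean of 61.9 CPM, lies at the lower edge of the genes of its level, while Klf7, Klf10 and Klf12 lie within the grey band above 0.

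Calls were rarer among highly expressed genes. From a mean level of 50 CPM upward there were 4529 genes, of which 2.16% were called lower and 0.574% higher. Klf2, Klf3, Klf4, Klf6, Klf7 and Klf13 lie in that range, and Klf4 alone among them was called. From 10 CPM upward there were 8926 genes, with 2.88% called lower. Klf9, at a mean of 9.13 CPM, and Klf12, at 9.70 CPM, fall under that level, where intervals are wider. From 5 CPM upward there were 10077 genes, with 3.44% called lower. Lower calls were thus more frequent between 5 and 10 CPM, the range of Klf9 and Klf12, than from 10 CPM upward.

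Promoters are shown for Klf4 and Klf9, the members called lower, for Klf2 and Klf6, which are abundant and just short of the 2-fold limit, and for Klf7, whose ratio was above 0. The windows hold the 250 bases before the RefSeq start on GRCm38.p6, written 5′ to 3′ on the strand of the gene. RefSeq windows were found for 9 of the 10 members, and none was matched for Klf10. Capitals mark matches, on either strand, to the MEF2 element (the site bound by the MEF2 factors), the CCAAT box, the E-box CACGTG and the KLF element CCACNCCC.
Klf4, chr4:55532476-55532725, minus strand: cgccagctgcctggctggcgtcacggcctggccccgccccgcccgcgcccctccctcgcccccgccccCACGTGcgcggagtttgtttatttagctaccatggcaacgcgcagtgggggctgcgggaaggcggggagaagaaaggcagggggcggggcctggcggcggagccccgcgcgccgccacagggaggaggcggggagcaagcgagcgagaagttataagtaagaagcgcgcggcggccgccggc
Klf9, chr19:23140976-23141225, plus strand: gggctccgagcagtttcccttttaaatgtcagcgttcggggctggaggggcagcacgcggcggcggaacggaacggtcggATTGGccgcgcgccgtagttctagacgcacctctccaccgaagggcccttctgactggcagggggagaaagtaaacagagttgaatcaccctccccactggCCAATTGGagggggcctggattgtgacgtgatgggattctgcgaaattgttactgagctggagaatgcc
Klf2, chr8:72318812-72319061, plus strand: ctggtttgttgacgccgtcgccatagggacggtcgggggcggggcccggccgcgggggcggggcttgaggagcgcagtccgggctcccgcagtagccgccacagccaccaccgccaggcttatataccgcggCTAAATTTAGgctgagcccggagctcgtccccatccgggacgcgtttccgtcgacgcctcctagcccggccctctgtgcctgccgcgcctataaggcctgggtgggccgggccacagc
Klf6, chr13:5861239-5861488, plus strand: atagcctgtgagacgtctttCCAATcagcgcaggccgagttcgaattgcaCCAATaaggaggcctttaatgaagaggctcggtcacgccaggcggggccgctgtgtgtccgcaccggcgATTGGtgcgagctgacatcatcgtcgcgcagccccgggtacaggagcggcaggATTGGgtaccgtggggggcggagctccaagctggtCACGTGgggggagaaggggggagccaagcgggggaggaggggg
Klf7, chr1:64121390-64121639, minus strand: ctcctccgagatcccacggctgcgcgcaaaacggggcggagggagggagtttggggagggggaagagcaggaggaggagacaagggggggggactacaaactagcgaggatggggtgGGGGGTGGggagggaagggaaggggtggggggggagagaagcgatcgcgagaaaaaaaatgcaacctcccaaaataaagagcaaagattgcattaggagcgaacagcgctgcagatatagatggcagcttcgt

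The Klf2 window holds a MEF2 element, which begins 118 bases before the start. Of all 32851 RefSeq windows of this length, 0.508% hold such a match, and none of the other 8 member windows does. The Klf6 window has 4 CCAAT boxes and the Klf9 window 3, of which 2 overlap on opposite strands. CCAAT boxes occur in 4 of the 9 member windows and in 33.85% of all windows. E-boxes stand in the windows of Klf4, Klf6 and Klf11, and in 6.02% of all windows.

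GC boxes (GGGCGG, not in capitals) occur in 7 of the 9 member windows and in 32.7% of all windows. Klf3 has 6 of them, Klf4 has 4, and Klf9 and Klf12 have none. The KLF element itself was found in the windows of Klf7, Klf12 and Klf13, and in 15.9% of all windows. In the Klf13 window 1 KLF element overlaps a GC box. The GC content of the Klf12 window, 48.0%, was below the median of 52.4% over all windows. The other member windows lay above that median, up to 78.4% in Klf3. The windows of Klf7 and Klf12 lie wholly inside the annotated bounds of their genes, upstream of an inner start. Those of Klf2, Klf3, Klf6 and Klf11 reach partly into the bounds, since the RefSeq start lies inside them. The AP-1 element TGACTCA (4.46% of all windows), the cAMP response element TGACGTCA (1.55%) and the CArG box of serum response factor (1.47%) were searched too, and are in none of the 9 windows. The looser AP-1 letters TGANTCA, which were searched first and narrowed after the matches were seen, occur once in the Klf9 window, 89 bases before the start, and in 6.75% of all windows. The TATA element TATAAA is in the Klf12 window and in 12.4% of all windows. A match describes the sequence and is not evidence of binding.

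Compared per length of exon, which allows levels of different genes to be set beside each other, the family summed to 259 CPM per kb in the Ch25h-/- library and 458 CPM per kb in the C57BL/6 library. Klf2 was the highest member on this scale, with 98.6 CPM per kb in the Ch25h-/- library and 185 CPM per kb in the C57BL/6 library. Of the measured genes with a length, 97.0% lay below Klf2 in the Ch25h-/- library and 98.7% in the C57BL/6 library. Klf6 followed with 80.3 and 159 CPM per kb in the Ch25h-/- and C57BL/6 libraries, and Klf13 with 37.5 CPM per kb in Ch25h-/- and 47.4 CPM per kb in C57BL/6.

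The order of the next members differed between the libraries. Klf7 was the fourth in the Ch25h-/- library, at 13.3 CPM per kb, and Klf4 the fifth, at 9.52 CPM per kb. In the C57BL/6 library Klf4 was the fourth, at 31.1 CPM per kb, and Klf7 the fifth, at 10.5 CPM per kb. There were 0.268 Klf4 counts per Klf7 count in the Ch25h-/- library and 1.105 in the C57BL/6 library, a log2 difference of -2.04 (interval -2.22 to -1.86). This ratio is formed within each library and does not depend on scaling between them.

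Klf2 and Klf6 together made up most of the summed level in both libraries. Klf2 made up 38.1% of the summed per-length level in the Ch25h-/- library and 40.4% in the C57BL/6 library, and Klf6 31.1% in Ch25h-/- and 34.8% in C57BL/6. Klf4 made up 3.68% in the Ch25h-/- library and 6.78% in the C57BL/6 library. Klf13 took 14.5% in the Ch25h-/- library and 10.4% in the C57BL/6 library, and Klf7 5.15% in Ch25h-/- and 2.30% in C57BL/6. As a share of all gene counts, the 10 members held 0.107% in the Ch25h-/- library, with a Clopper-Pearson interval of 0.106 to 0.109%. They held 0.175% in the C57BL/6 library, with an interval of 0.173 to 0.177%.

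**Figure D4:**
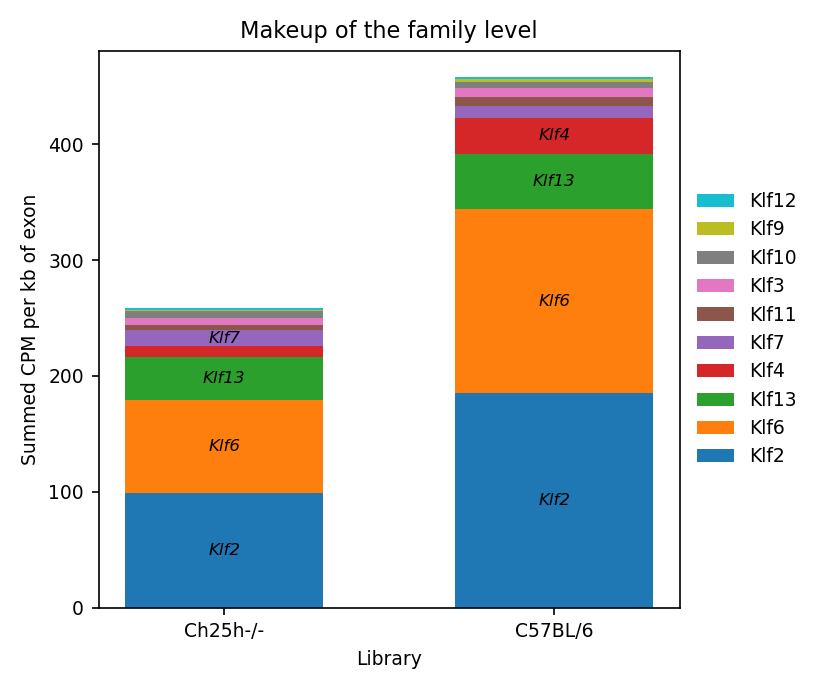
Summed level of the 10 members in CPM per kb of exon (y axis) for the Ch25h-/- library (left) and the C57BL/6 library (right), with each segment 1 gene. The stack reaches 259 in the Ch25h-/- library and 458 in the C57BL/6 library, and Klf2 and Klf6 form most of both.

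By branch, the activator genes summed to 672 CPM in the Ch25h-/- library and 1221 CPM in the C57BL/6 library, a log2 ratio of -0.86 (interval -0.90 to -0.83). The Sin3-binding genes summed to 333 and 427 CPM in the Ch25h-/- and C57BL/6 libraries (-0.36, interval -0.41 to -0.31). The CtBP-binding genes summed to 77.7 CPM in Ch25h-/- and 90.1 CPM in C57BL/6 (-0.21, interval -0.32 to -0.10). Each branch held members on both sides of 0. Across the 45 pairs of members, the within-library count ratio differed between the libraries beyond counting error for 38 pairs. Klf4 and Klf9 formed 1 of the 7 pairs that did not, with 5.82 Klf4 counts per Klf9 count in the Ch25h-/- library and 7.14 in the C57BL/6 library (log2 difference -0.29, interval -0.69 to 0.10). Pairs of other genes were not counted in this way. No background share therefore stands beside the 38 pairs, and they do not set the family apart.

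The other 7 Klf genes were low or near level. Klf16 had 29.7 CPM in the Ch25h-/- library and 29.1 CPM in the C57BL/6 library (log2 ratio 0.03, interval -0.16 to 0.21), and Klf8 had 6.44 CPM in Ch25h-/- and 7.66 CPM in C57BL/6 (-0.25, interval -0.64 to 0.13). Klf5 had 15 counts in the Ch25h-/- library and 9 in the C57BL/6 library, and Klf1, the erythroid member, had 1 count in Ch25h-/- and 4 counts in C57BL/6. Klf14, Klf15 and Klf17 had 0 counts in both, which allows up to 0.189 CPM in the Ch25h-/- library and 0.175 CPM in the C57BL/6 library. Neither Klf8 nor Klf16 was called.

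Sp factors are the closest relatives of the family and bind GC boxes through similar zinc fingers. Of 9 Sp genes 4 were measured, and none was called in either direction (median log2 ratio 0.19). Sp1 had 236 CPM in the Ch25h-/- library and 216 CPM in the C57BL/6 library (0.13, interval 0.06 to 0.19), and Sp4 had 98.7 CPM in Ch25h-/- and 72.3 CPM in C57BL/6 (0.45, interval 0.34 to 0.56). Sp3, the most abundant per length, was level, at 153.8 CPM in Ch25h-/- and 154.2 CPM in C57BL/6.

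Cofactor genes of the family lay close to 0. None of the 9 corepressor genes was called, with a median of 0.06 and a range of -0.27 (Sin3b) to 0.18 (Ctbp2). Ctbp1, the most abundant of them, had 176 CPM in the Ch25h-/- library and 159 CPM in the C57BL/6 library. None of the 4 acetyltransferase genes was called either (median -0.08), and the largest difference was that of Crebbp, with 200.2 CPM in the Ch25h-/- library and 246 CPM in the C57BL/6 library (-0.30). Ep300 was the most abundant of them, at 375 CPM in Ch25h-/- and 410.1 CPM in C57BL/6.

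Ubiquitin ligases that act on Klf proteins were uncalled in all 8 cases (median 0.04). Fbxw7, which targets Klf2 and other phosphorylated factors, had the largest ratio, with 87.5 CPM in the Ch25h-/- library and 58.3 CPM in the C57BL/6 library (0.58, interval 0.47 to 0.70). Wwp1 stood at 0.41, Smurf1 at -0.49 and Itch, the most abundant, at 0.13.

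Genes of the ERK5 and MEF2 route, which induces Klf2 and Klf4 in other cell types, were also uncalled in all 11 cases (median -0.12). Hdac5, a class IIa deacetylase that holds MEF2 factors in check, had 36.0 CPM in the Ch25h-/- library and 57.8 CPM in the C57BL/6 library (-0.68, interval -0.84 to -0.53). The deacetylase gene Hdac7, also on the list, went the other way. It had 189 CPM in Ch25h-/- and 151 CPM in C57BL/6 (0.32, interval 0.25 to 0.40). Mef2d, whose level per length was the highest here, had 302 CPM in Ch25h-/- and 335 CPM in C57BL/6 (-0.15), and Mapk7, which encodes ERK5, had 43.6 CPM in Ch25h-/- and 43.7 CPM in C57BL/6. Foxo1, an inducer of Klf2 in lymphocytes, stood at -0.12.

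None of the 10 TGF-beta and Smad genes was called, with a median of 0.10. Smad3 had 158 CPM in the Ch25h-/- library and 101 CPM in the C57BL/6 library (0.65, interval 0.56 to 0.74), and Tgfb1, the most abundant, had 339 CPM in Ch25h-/- and 276 CPM in C57BL/6 (0.30). Smad7, the inhibitory Smad that Klf10 and Klf11 are known to repress, stood at -0.45, the only value of the list under 0.

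Of 7 genes of the glucocorticoid response, the setting in which Klf9 is best known, 1 was called lower and none higher (median -0.13). The called gene was the clock gene Per1, with 107 CPM in the Ch25h-/- library and 222 CPM in the C57BL/6 library (-1.06, interval -1.14 to -0.97). Sgk1 stood at -0.66 and Tsc22d3, the glucocorticoid-induced leucine zipper and the most abundant of the list per length, at -0.59 (229 CPM in the Ch25h-/- library and 343 CPM in the C57BL/6 library). Fkbp5 stood at -0.13 and the receptor gene Nr3c1 at -0.03. Hsd11b1, the enzyme that regenerates active glucocorticoid, stood at 0.94 (interval 0.81 to 1.07), so the list spread over both sides of 0.

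Genes that Klf2 controls in T cells did not share a direction. None of 7 was called (median 0.33). S1pr1, the receptor that guides exit from tissue and is activated by Klf2, had 32.9 CPM in the Ch25h-/- library and 39.7 CPM in the C57BL/6 library (-0.27, interval -0.44 to -0.10). Cdkn1a, a cell cycle inhibitor gene, stood at -0.46 (interval -0.54 to -0.38), and Itgb7, an integrin gene of gut homing, at 0.44 (interval 0.38 to 0.49).

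Among 6 genes tied to alternative activation by Klf4 in macrophages, 3 were called lower (Mrc1, Retnla and Arg1) and none higher. The mannose receptor gene Mrc1 had the lowest ratio, with 69 counts in the Ch25h-/- library and 434 in the C57BL/6 library (-2.54, interval -2.93 to -2.17). Arg1 had 149 counts in Ch25h-/- and 591 counts in C57BL/6 (-1.88), and Retnla 7 counts in Ch25h-/- and 36 counts in C57BL/6 (-2.25, interval -3.66 to -1.06). Chil3, the most abundant, stood at 0.63, and Stat6, the partner of Klf4 in this program, at -0.13. The list was chosen with earlier results of these libraries known, and is no independent evidence.

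Several Klf genes, among them Klf2, Klf4, Klf6 and Klf10, are also known as early response genes that cells induce quickly on stimulation. Of 15 other immediate early genes, 6 were called lower and none higher (median -0.66). Of these 15 genes, 14 had a log2 ratio under 0, against 48.2% of all measured genes. Fosb had the lowest, at 126 CPM in the Ch25h-/- library and 571 CPM in the C57BL/6 library (-2.18), followed by Atf3 (-1.88), Dusp1 (-1.71), Fos (-1.27), Ier3 (-1.19) and Zfp36 (-1.06). Jund, the most abundant per length, stood at -0.27. Egr1 was level at 91.7 CPM in Ch25h-/- and 91.6 CPM in C57BL/6, and Klf10 likewise lay near 0. The part of such a shared early response in the Klf values was not tested.

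The sorted cells held transcripts of several cell types, and their markers differed between the libraries beside the Klf genes. In bulk samples, fewer cells of a type and less RNA per cell cannot be told apart. The labelled cell type was checked first. The 12 red pulp macrophage markers summed to 235 CPM in the Ch25h-/- library and 369 CPM in the C57BL/6 library, with Cd163, Spic, C1qa and Timd4 called lower (median -0.75). Of the 12 markers 10 had a log2 ratio under 0. The others were Slc40a1, at 0.72 (interval 0.38 to 1.07), and Axl, at 0.01 (interval -0.16 to 0.18). Adgre1, the defining gene of these macrophages, had 7.23 CPM per kb in the Ch25h-/- library and 12.3 CPM per kb in the C57BL/6 library. Hmox1, the most abundant, had 42.2 CPM per kb in Ch25h-/- and 66.9 CPM per kb in C57BL/6. Gzmb, a granzyme gene of cytotoxic lymphocytes, had 5173 CPM per kb in Ch25h-/- and 3033 CPM per kb in C57BL/6, so the sorted cells held far more of this lymphocyte transcript than of the macrophage ones. The 4 marginal zone macrophage markers summed to 38.7 CPM in Ch25h-/- and 81.5 CPM in C57BL/6, with Marco and Siglec1 of 3 measured genes called lower (median -1.08) and Cd209b at 0 counts in both.

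Dendritic cell markers had the lowest values. All 7 measured of 10 were called lower, namely Flt3, Zbtb46, Batf3, Ccr7, Fscn1, Ccl22 and Esam (median -2.13), and the list summed to 392 CPM in the Ch25h-/- library and 1526 CPM in the C57BL/6 library. Fscn1, the most abundant, had 171 CPM in Ch25h-/- and 746 CPM in C57BL/6, and Esam had the lowest ratio (-2.66). Of the unmeasured markers, Xcr1 had 6 and 0 counts in the Ch25h-/- and C57BL/6 libraries, Clec9a 13 in Ch25h-/- and 5 in C57BL/6, and Cd209a 5 in Ch25h-/- and 11 in C57BL/6. B cell markers summed to 903 CPM in Ch25h-/- and 1462 CPM in C57BL/6, with 1 of 10 called lower, Ebf1 (median -0.68), and Cd79a the most abundant per length.

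Calls among markers of cytotoxic and granulocytic cells were all in the higher direction. The 12 NK cell markers summed to 20748 CPM in the Ch25h-/- library and 12854 CPM in the C57BL/6 library, with Ncr1, Klrd1, Klre1 and Xcl1 called higher and all 12 above 0 (median 0.80). Gzma was the most abundant per length, at 5274 CPM in Ch25h-/- and 3518 CPM in C57BL/6, and Ncr1 had the largest ratio (1.46). The 10 neutrophil markers summed to 1385 CPM in Ch25h-/- and 756 CPM in C57BL/6, with Ly6g, Ngp, Camp, Ltf and Mmp9 called higher (median 0.97). Mpo, the only one of them under 0, stood at -0.41 (interval -0.54 to -0.28), and Elane at 0.16 (interval -0.11 to 0.43). Ly6g, the marker that the sort left out, had 41 counts in Ch25h-/- and 8 counts in C57BL/6, and Ngp, the most abundant, 646 CPM in Ch25h-/- and 322 CPM in C57BL/6.

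Monocyte and T cell markers lay between these groups. The 6 Ly6C-high monocyte markers summed to 2220 CPM in the Ch25h-/- library and 1564 CPM in the C57BL/6 library, with Ccr2 and Vcan called higher (median 0.56). The 10 Ly6C-low monocyte markers summed to 2289 CPM in Ch25h-/- and 1980 CPM in C57BL/6. Itgal, the most abundant per length, made up most of that sum, at 1784 CPM in Ch25h-/- and 1341 CPM in C57BL/6 (0.41). Of the 10 markers 7 had a log2 ratio under 0 (median -0.32), so the sum and the median went in opposite directions. Only Fcgr4 was called, in the lower direction. The 8 T cell markers summed to 44.5 CPM in Ch25h-/- and 46.9 CPM in C57BL/6, with none called (median -0.16), Cd8a the largest ratio (0.70), and the highest level per length that of Cd3d in Ch25h-/- and of Cd4 in C57BL/6.

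Set beside these lists, the Klf4 ratio of -1.71 lay between the medians of the dendritic cell and the marginal zone macrophage markers. Klf2 and Klf6, at -0.91 and -0.99, lay between those of the marginal zone and the red pulp macrophage markers. Klf7 and Klf12, at 0.34 and 0.42, were above 0. They lay under the medians of the Ly6C-high monocyte (0.56), NK cell (0.80) and neutrophil (0.97) markers, which were above 0 too. The part of cell makeup in the Klf values was not tested, and with 1 library per genotype, cell makeup, genotype and library cannot be told apart.

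**Figure D5:**
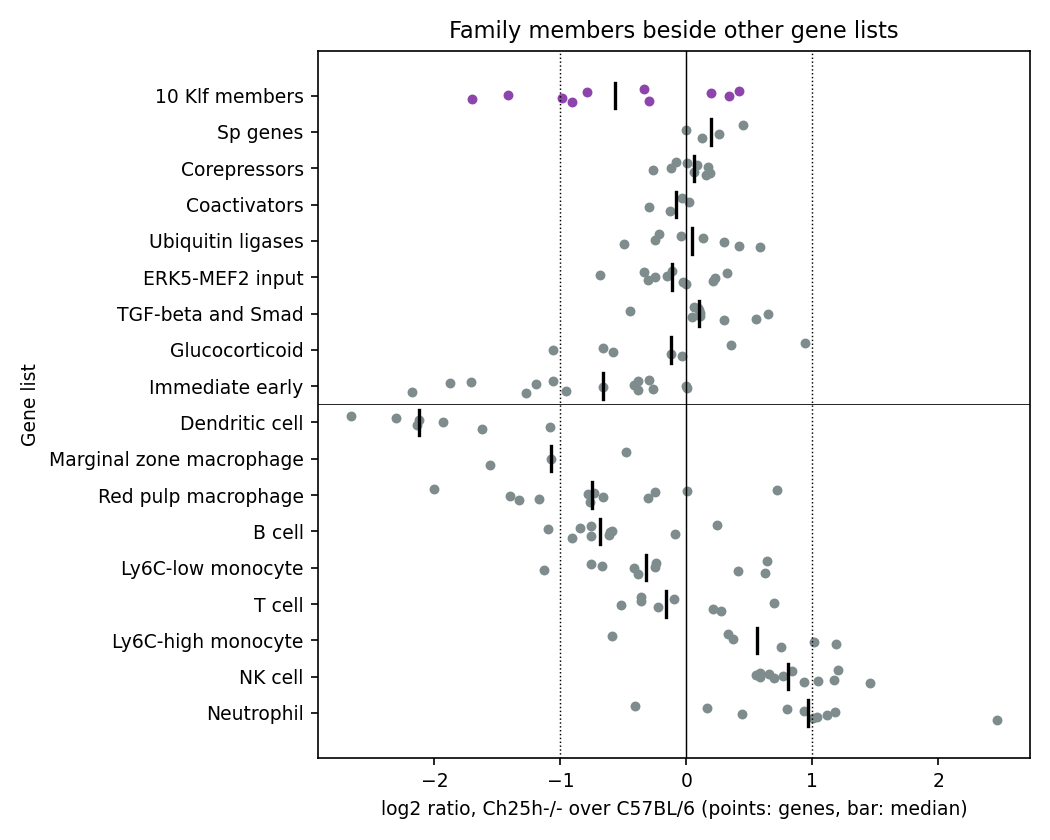
Log2 ratio of Ch25h-/- over C57BL/6 (x axis) for each measured gene of the Klf members, related genes and cell type markers (y axis), with black bars at the medians and dotted lines at a 2-fold difference. The Klf members spread from -1.71 to 0.42 around a median of -0.56. By median, the dendritic cell markers lie lowest and the NK cell and neutrophil markers highest.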

How the data were processed

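The authors deposited raw read counts per gene for 2 libraries, 1 per genotype, and these were used as given. The submitters' processing notes name GSNAP, featureCounts, Subread 1.5.2 and edgeR 3.26.8, with builds GRCm38 and mm10. Strand setting, reads matching several places and pooling of mice are not given in the sources used here. Per the labels' protocols, TRIzol RNA went into KAPA RNA HyperPrep libraries.

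TMM factors (edgeR 4.0.16, R 4.3.3) were 0.991 for Ch25h-/- and 1.01 for C57BL/6. Intervals of ratios are exact Clopper-Pearson intervals of 1 library's share of both counts (scipy 1.17.1). Those of count ratios between members come from sample odds ratios, with a normal approximation on the log scale, and are not exact. With no molecular identifiers, PCR copies count as reads, so intervals cover counting error only. Levels per kb use the union of GENCODE M21 exons (GRCm38), found for 30126 of 30538 IDs. No p-value was computed. The calculation was tested on simulated Poisson counts, the model that the intervals assume, with no variation between mice or sorts. That test checks the arithmetic only, and not how well the intervals or calls hold for real libraries.

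Members and lists were chosen with earlier results of these data known. Named genes are all members, all other Klf genes, and from each list the called genes, the most abundant per length and the one with the largest ratio in size. Further list members, and the promoters shown, were picked after their values were seen. Some genes that the rule picks are not reported here. Alternatives were scaling by total counts, by upper quartile, by size factors of DESeq2 1.42.0 or after leaving out 39 genes (mitochondrial, haemoglobin, S100a8 and S100a9, and those of immunoglobulins and T cell receptors), other filters, a prior count and other call rules. The AP-1 letters were narrowed from TGANTCA to TGACTCA after the matches were seen, and both are given.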

Additional observations from a re-analysis of the deposited data

How the results depend on the processing

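The log2 ratio of each of the 10 members stayed within its counting interval under the 5 alternatives that can move it (4 scalings and a prior count), and no sign changed. Both filters left the ratios as they were. The 4 other scalings moved every ratio by at most 0.026. Klf4 and Klf9 were called lower under all 9 alternatives, Klf6 also with total counts, and Klf2, Klf6 and Klf11 under the 1.5-fold rule, which gave 5 members. Against 248 genes higher and 691 lower, the filter at 5 CPM gave 120 higher and 347 lower, keeping all genes with a count gave 435 (higher) and 1031 (lower), an interval wholly beyond 2-fold gave 67 higher and 318 lower, and the 1.5-fold rule gave 880 higher and 1344 lower. With the longest transcript as length, an alternative chosen after seeing the data, the share of the summed level in the Ch25h-/- and C57BL/6 libraries became 35.3% and 38.2% for Klf2, 29.9% and 34.2% for Klf6, 4.57% and 3.23% for Klf3, 3.06% and 1.54% for Klf10, and 15.8% and 11.5% for Klf13, and that of Klf4 6.45% in C57BL/6. Depth limits Klf9 and Klf12 most, which had the fewest counts and the widest intervals. No paired analysis was possible because each genotype has 1 library.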

Other observations

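Endothelial cells and red cell precursors are where Klf2 and Klf1 are best known, so their markers were read too. Of 7 endothelial markers, Pecam1, which leukocytes also express, had 446 CPM in the Ch25h-/- library and 402 CPM in the C57BL/6 library. Kdr, an endothelial receptor gene, had 158 counts in the Ch25h-/- library and 142 in the C57BL/6 library (log2 ratio 0.27, interval -0.07 to 0.60). Cdh5 had 2 and 8 counts in the Ch25h-/- and C57BL/6 libraries, Tek 1 in Ch25h-/- and 5 in C57BL/6, Egfl7 4 in Ch25h-/- and 1 in C57BL/6, and Nos3 0 in Ch25h-/- and 1 in C57BL/6, while Stab2 was called lower (13 counts in Ch25h-/- and 38 in C57BL/6). Of the erythroid markers, Alas2 had 0 counts in both libraries and Gata1 16 in Ch25h-/- and 12 in C57BL/6, beside 1 and 4 counts of Klf1 in the Ch25h-/- and C57BL/6 libraries. Car2 and Tfrc, which other cells express as well, both stood at a log2 ratio of 0.84. The part of either cell type in the Klf values was not tested.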
